A study of Mus musculus with 8 samples.

Results

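Periostin (Postn), CCN2 (Ccn2), tenascin-C (Tnc), SPARC (Sparc), fibronectin (Fn1), osteoglycin (Ogn), decorin (Dcn), lumican (Lum), biglycan (Bgn) and fibrillin-1 (Fbn1) are secreted glycoproteins and small proteoglycans of the extracellular matrix. These 10 genes were chosen by the intensities of Postn, Ogn and Ccn2, which stood out between the 4 groups of the study, so the levels and differences of those 3 genes are a description with no test. Of the 10 genes, 9 were measured among the 18193 genes that a probe set of the array represented, and Fbn1 was not analysed here. The other 6 measured genes, Tnc, Sparc, Fn1, Dcn, Lum and Bgn, were tested. The 9 genes had 17 probe sets, and each gene is given by its brightest one, by mean log2 intensity over the 8 arrays.

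RNA came from myotubes of C2C12, an established mouse myoblast line that fuses into multinucleated muscle cells when serum is lowered. All cultures spent 3 days in 2% dialyzed serum before they received adenovirus, and RNA was taken 3 days after the virus. The 4 groups of 2 arrays were GFP-PGC-1α plus 100 µM deferoxamine (DFO), GFP-PGC-1α, GFP plus 100 µM DFO, and GFP, called PGC-1α cells and GFP cells from here on. PGC-1α is a transcriptional coactivator of mitochondrial genes and DFO binds ferric iron. Every group carried a virus, so no culture shows the line without infection, and the promoter that drove the constructs was not given in the sources used here. According to the design text, both arrays of a group are biological duplicates, and since all 8 share 1 cell line, the spread between them is that of cultures.

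Matricellular proteins such as periostin, tenascin-C, SPARC and CCN2 sit in the matrix and act on cells through integrins, growth factors and collagen, where fibronectin and collagens form the scaffold itself. Small leucine-rich proteoglycans such as decorin, biglycan, lumican and osteoglycin bind collagen fibrils, and decorin and biglycan also bind TGF-beta. In muscle these proteins surround the fibres, and transcription of several of them is known to answer to TGF-beta, to YAP with TEAD factors, and to the state of differentiation.

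The construct and the drug were both visible on the arrays. Ppargc1a, which encodes PGC-1α, averaged 7123 intensity units in PGC-1α cells and 33.0 in GFP cells (limma adjusted p = 0.00315). Car9, a carbonic anhydrase induced through hypoxia-inducible factor, which DFO stabilises, averaged 1031 with DFO against 25.7 without it in PGC-1α cells (limma adjusted p = 0.000406). In GFP cells it averaged 1264 with DFO against 43.1 without it (limma adjusted p = 0.000629). The cells carried myotube transcripts, and the level of these moved with the groups. The summed intensity of 12 myotube markers was 11124 to 12113 in PGC-1α cells with DFO, 48602 to 49391 in PGC-1α cells, 20949 to 21086 in GFP cells with DFO and 62633 to 65277 in GFP cells, and no marker was at the lowest deposited value of 1 on any array. In a bulk culture fewer cells of a type and less RNA per cell cannot be told apart. The beta-actin 5′/3′ ratio, which falls as RNA degrades, was 0.753 and 0.811 in PGC-1α cells with DFO, 0.919 and 0.897 in PGC-1α cells, 0.868 and 0.859 in GFP cells with DFO, and 0.921 and 0.898 in GFP cells. The mean log2 intensity of 24 poly-A spike-in probe sets, RNAs added during labelling, was 8.11 and 7.97 in PGC-1α cells with DFO and lay between 8.35 and 8.77 on the other 6 arrays. Scaling the arrays to these spike-ins moved the median log2 difference of all genes from 0.01 to 0.45 for DFO in PGC-1α cells and from -0.05 to 0.57 for the construct with DFO. It turned the share of called genes that were higher to 80.9% against 44.6% on the deposited scale for DFO in PGC-1α cells, to 94% against 36.6% for the construct with DFO and to 86.2% against 51% for the construct without DFO.

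The promoters of Ogn and Postn, which were among the genes lower with DFO under both constructs, and of Tnc, which was higher with DFO under both, are shown for comparison, as the 250 bases before an annotated start in RefSeq's GRCm38.p6 annotation. The Ogn window is chr13:49607765-49608014 on the plus strand, the Postn window chr3:54360857-54361106 on the plus strand and the Tnc window chr4:64046937-64047186 on the minus strand. Capitals mark CANNTG, the E-box that the muscle factors MYOD1 and myogenin can bind, which reads the same on both strands.
Ogn: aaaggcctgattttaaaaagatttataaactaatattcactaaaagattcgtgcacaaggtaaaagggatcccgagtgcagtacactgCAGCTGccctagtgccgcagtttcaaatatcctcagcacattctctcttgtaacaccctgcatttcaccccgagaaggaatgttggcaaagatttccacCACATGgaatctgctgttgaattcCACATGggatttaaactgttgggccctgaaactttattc
Postn: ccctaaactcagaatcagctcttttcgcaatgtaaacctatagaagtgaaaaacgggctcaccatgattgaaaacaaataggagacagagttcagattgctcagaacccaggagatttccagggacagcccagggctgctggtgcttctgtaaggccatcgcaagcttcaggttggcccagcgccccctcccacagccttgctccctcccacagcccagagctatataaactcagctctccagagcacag
Tnc: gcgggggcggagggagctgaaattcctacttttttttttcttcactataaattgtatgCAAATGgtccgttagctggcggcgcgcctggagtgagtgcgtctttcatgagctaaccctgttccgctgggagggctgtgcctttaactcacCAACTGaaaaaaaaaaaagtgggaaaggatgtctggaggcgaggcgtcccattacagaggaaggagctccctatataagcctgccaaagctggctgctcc
Counting back from the base before the start as -1, the Ogn window held CANNTG at -162, -63 and -39, the Tnc window held it at -192 and -100, and the Postn window held no match. Over all 32851 promoter windows of this length, 66.2% held at least 1 CANNTG. The TEAD motif GGAATG, searched on both strands and not overlapping an E-box, was at -86 in the Ogn window and in 12.6% of all windows. TATAAA, searched on both strands, was at -229 and -227 in the Ogn window (overlapping matches on opposite strands), at -26 in the Postn window and at -205 in the Tnc window, and 12.4% of all windows held one on either strand. Windows were on file for 5 of the 9 measured genes, Postn, Tnc, Sparc, Ogn and Bgn. None of their 7 windows held ACGTG, a form of the core of the hypoxia response element, which 16.6% of all windows held. Another form of that core, GCGTG, was not counted over all windows, and the Bgn window, not shown here, holds it. CAGAC, a SMAD-binding motif searched on both strands, was in 42.2% of all windows, and among the windows shown only that of Tnc held it, at -70. The Sparc window, not shown here, held CAGAC at -35 and CANNTG at -60 and -10. In the Bgn window CANNTG was at -102, with no CAGAC. The matches depend on the start chosen, since Postn and Tnc each had another window on file. The other Postn window held CAGAC at -191 and no CANNTG or TATAAA. The other Tnc window, which overlaps the one shown, held CANNTG at -217, -113 and -21, TATAAA at -126 and no CAGAC. A match here is a string of letters and not a site of binding.

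Postn (probe set 1423606_at) encodes periostin, a matricellular protein that binds integrins, collagen and fibronectin. Its intensity was 183 and 176 in PGC-1α cells with DFO, 827 and 863 in PGC-1α cells, 533 and 474 in GFP cells with DFO, and 754 and 720.04 in GFP cells. The 4 groups did not overlap: PGC-1α cells without DFO were highest, GFP cells without DFO next, then GFP cells with DFO, and PGC-1α cells with DFO were lowest. The gap between the 2 highest groups was the smallest, and on a log2 scale it was 0.20 ± 0.09 (SE from limma, here and below, with 2 arrays a group). DFO went with a log2 difference of -2.24 ± 0.09 in PGC-1α cells and of -0.55 ± 0.09 in GFP cells. The construct went with 0.20 without DFO and with -1.49 with DFO, so that its sign differed between the 2 conditions, and the difference between those values was -1.68 ± 0.13. On the spike-in scale the construct value with DFO was -0.87. Of all 18193 genes, 583 (3.2%) had the same pattern of arrays, higher in PGC-1α cells than in GFP cells without DFO and lower with it. Postn has 1 probe set on this array.

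Ccn2 (1416953_at) encodes CCN2, also called connective tissue growth factor, a matricellular protein whose transcription answers to TGF-beta and to YAP with TEAD. Its intensity was 386 and 371 in PGC-1α cells with DFO, 517 and 518 in PGC-1α cells, 884 and 911 in GFP cells with DFO, and 496 and 548 in GFP cells. GFP cells with DFO were highest and PGC-1α cells with DFO lowest, and between them the 2 groups without DFO overlapped. The log2 difference with DFO was -0.45 ± 0.09 in PGC-1α cells and 0.78 ± 0.09 in GFP cells, and the difference between these was -1.24 ± 0.12. When arrays were scaled to the spike-ins, the value in PGC-1α cells was -0.01. The construct went with -1.25 ± 0.09 in the presence of DFO and with -0.01 without it, and on the spike-in scale its value with DFO was -0.63. Ccn2 was one of 545 genes (3%) that were higher with DFO on both arrays in GFP cells and lower with DFO on both arrays in PGC-1α cells.

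**Figure D1:**
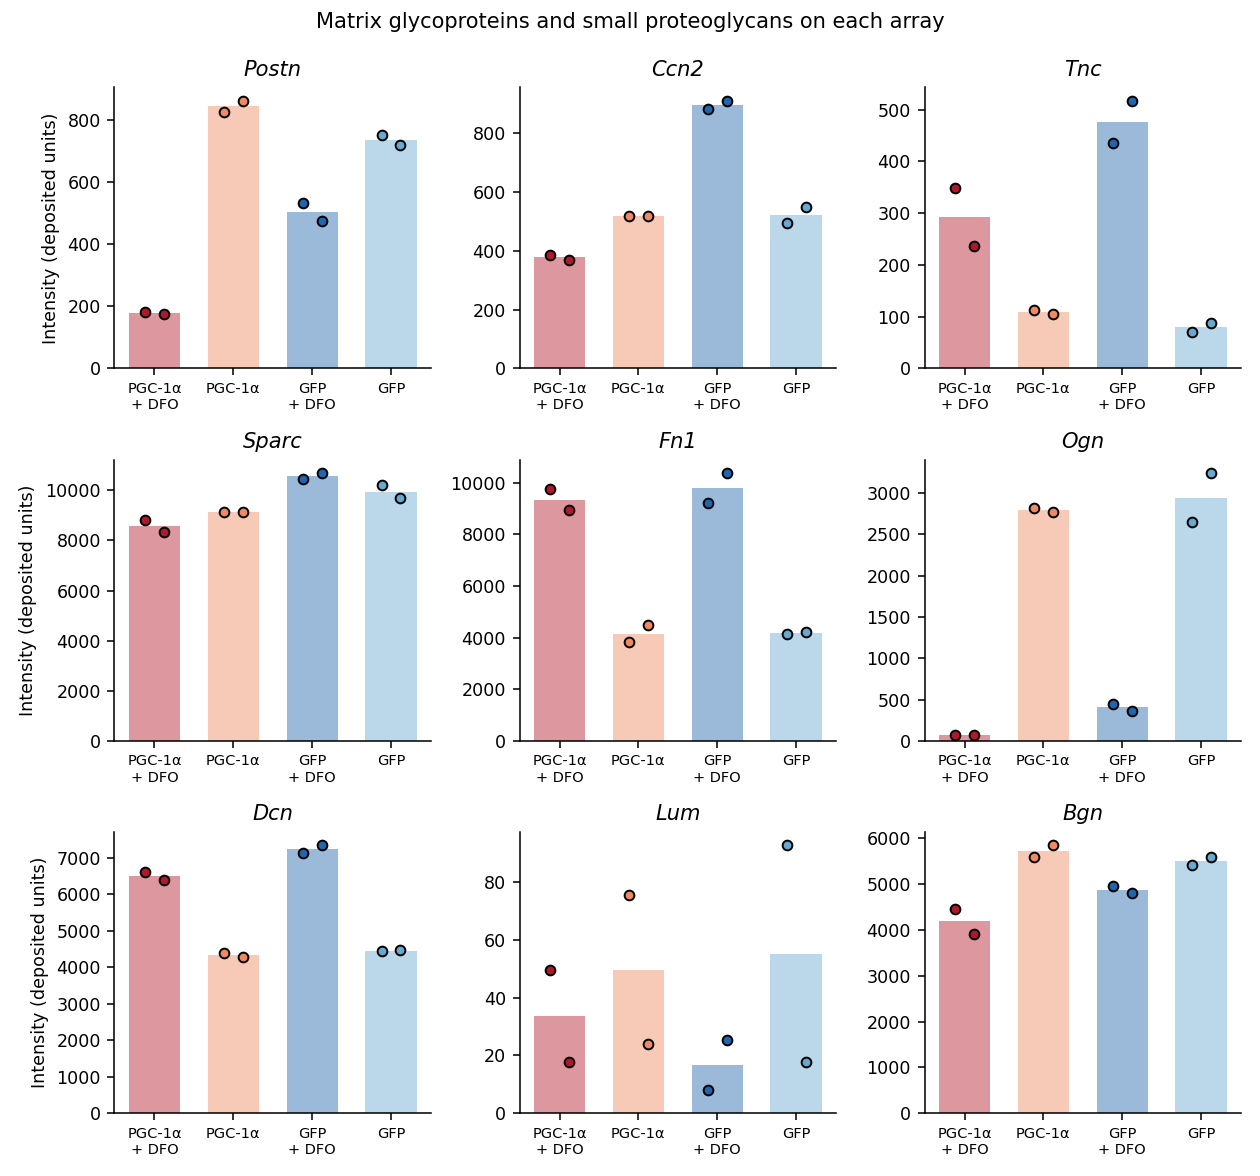
Intensity of the leading probe set of the 9 measured genes, in deposited linear units, 1 panel per gene with its own axis from 0. Points are single arrays and bars the mean of 2 arrays, with PGC-1α cells left of GFP cells and DFO left of no DFO. Ogn and Postn are lowest in PGC-1α cells with DFO, Ccn2 is highest in GFP cells with DFO, and Lum has arrays that overlap between all groups.

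Tnc (1416342_at) encodes tenascin-C, an adhesion-modulating glycoprotein that is strong in embryonic and regenerating muscle. It rose with DFO under both constructs. Its intensity was 349 and 237 in PGC-1α cells with DFO, 113 and 106 in PGC-1α cells, 436 and 517 in GFP cells with DFO, and 70.8 and 87.9 in GFP cells. All 4 arrays with DFO lay above the 4 arrays without it, and GFP cells with DFO were highest. The rise was 1.40 ± 0.22 on the log2 scale in PGC-1α cells (limma adjusted p = 0.00955) and 2.59 ± 0.22 in GFP cells (limma adjusted p = 0.00148). The interaction, -1.19 ± 0.32, did not pass (limma adjusted p = 0.162). The construct gave 0.47 ± 0.22 without DFO (limma adjusted p = 0.248) and -0.72 ± 0.22 with DFO (limma adjusted p = 0.0864), neither past the threshold. A second Tnc probe set, 1456344_at, was dim, at the 7.4th percentile of all probe sets with a mean of 2.51 in PGC-1α cells with DFO. For the construct with DFO it gave -2.63 ± 0.53 (limma adjusted p = 0.0356). For DFO it gave -1.82 ± 0.53 in PGC-1α cells (limma adjusted p = 0.0717) and 0.63 ± 0.53 in GFP cells (limma adjusted p = 0.497). With the mean of both probe sets the difference in PGC-1α cells turned to -0.21 (limma adjusted p = 0.541), and it also lost the call without PGC-1α replicate 2 (1.35, limma adjusted p = 0.0516) and in a fit of only these 2 groups (limma adjusted p = 0.0588), where its adjusted p over the alternatives began at 4.49e-05.

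Sparc (1416589_at) encodes SPARC, a collagen-binding protein that is abundant in cultured muscle cells. Its intensity was 8812 and 8345 in PGC-1α cells with DFO, 9131 and 9123 in PGC-1α cells, 10433 and 10688 in GFP cells with DFO, and 10205 and 9673 in GFP cells. Both PGC-1α groups lay below both GFP groups, yet no Sparc difference passed the test. The largest was that of the construct with DFO, -0.30 ± 0.08 (limma adjusted p = 0.0602), which passed in 3 of 17 alternatives (limma adjusted p from 7.16e-05 to 0.301) and was 0.32 when arrays were scaled to the spike-ins. DFO gave -0.09 ± 0.08 in PGC-1α cells and 0.09 ± 0.08 in GFP cells (limma adjusted p = 0.485 and 0.51).

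Fn1 (1426642_at) encodes fibronectin, the adhesive glycoprotein that integrins assemble into fibrils. It rose with DFO in both cell groups. Its intensity was 9752 and 8944 in PGC-1α cells with DFO, 3833 and 4478 in PGC-1α cells, 9216 and 10375 in GFP cells with DFO, and 4137 and 4216 in GFP cells. The arrays with DFO all lay above those without it, and PGC-1α cells overlapped GFP cells in both conditions. The rise was 1.17 ± 0.12 in PGC-1α cells (limma adjusted p = 0.00225) and 1.23 ± 0.12 in GFP cells (limma adjusted p = 0.00213), with an interaction of -0.05 ± 0.17 (limma adjusted p = 0.9). It passed in all 17 alternatives on its leading probe set in both cell groups. The second probe set, 1437218_at, averaged 233 in PGC-1α cells with DFO, 86.1 in PGC-1α cells, 592 in GFP cells with DFO and 150.2 in GFP cells. There the rise was 1.40 ± 0.28 in PGC-1α cells and 1.97 ± 0.28 in GFP cells (limma adjusted p = 0.0231 and 0.00893), and the construct with DFO gave -1.37 ± 0.28 (limma adjusted p = 0.0343), a fall that the leading probe set did not show (-0.07 ± 0.12, limma adjusted p = 0.768).

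Ogn (1419663_at) encodes osteoglycin, also called mimecan, a small leucine-rich proteoglycan found in connective tissue and made by muscle. Its intensity was 66.7 and 64.9 in PGC-1α cells with DFO, 2822 and 2763 in PGC-1α cells, 444 and 364 in GFP cells with DFO, and 2646 and 3240 in GFP cells. The arrays with DFO lay far below those without it, PGC-1α cells with DFO were lowest, and the 2 groups without DFO overlapped. The level was 42.4-fold lower with DFO in PGC-1α cells (log2 difference -5.41 ± 0.15) and 7.28-fold lower in GFP cells (-2.86 ± 0.15), and the difference between these log2 values was -2.54 ± 0.21. The 42.4-fold value rests on a dim signal. In PGC-1α cells with DFO the mean log2 intensity was 6.04, below the median gene level of 6.97. The construct went with -2.61 ± 0.15 in the presence of DFO and with -0.07 ± 0.15 without it, and on the spike-in scale its value with DFO was -1.99. The second Ogn probe set, 1419662_at, read 31.9 and 49.6 in PGC-1α cells with DFO, 2392 and 2138 in PGC-1α cells, 310.5 and 280.5 in GFP cells with DFO, and 2528 and 2782 in GFP cells. It ordered the groups in the same way with DFO, with log2 differences of -5.83 ± 0.23 in PGC-1α cells and -3.17 ± 0.23 in GFP cells. Postn shared with Ogn the pattern of lower arrays with DFO under both constructs and lower arrays in PGC-1α cells than in GFP cells among those with DFO, which 1951 genes (10.7%) had.

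Dcn (1449368_at) encodes decorin, which binds collagen fibrils and TGF-beta, and it rose with DFO in both cell groups. Its intensity was 6619 and 6384 in PGC-1α cells with DFO, 4396 and 4271 in PGC-1α cells, 7129 and 7337 in GFP cells with DFO, and 4434 and 4481 in GFP cells. Neither group with DFO overlapped a group without it. The rise was 0.58 ± 0.08 in PGC-1α cells (limma adjusted p = 0.00504) and 0.70 ± 0.08 in GFP cells (limma adjusted p = 0.00309). It lost the call in PGC-1α cells in a fit of only these 2 groups (limma adjusted p = 0.0596, the highest of 17 alternatives, which began at 1.46e-07) and in GFP cells on the spike-in scale (0.70, limma adjusted p = 0.0535, the highest there, from 2.66e-08). The second probe set, 1441506_at, rose too, by 0.93 ± 0.11 in PGC-1α cells and 0.53 ± 0.11 in GFP cells (limma adjusted p = 0.00537 and 0.0305).

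Bgn (1416405_at) encodes biglycan, the closest relative of decorin in this set, and it moved the other way in PGC-1α cells. Its intensity was 4455 and 3921 in PGC-1α cells with DFO, 5584 and 5843 in PGC-1α cells, 4950.5 and 4800.3 in GFP cells with DFO, and 5412 and 5585 in GFP cells. The arrays with DFO lay below those without it under both constructs. The fall in PGC-1α cells was -0.45 ± 0.10 on the log2 scale (limma adjusted p = 0.0244), and in GFP cells the difference of -0.17 ± 0.10 did not pass (limma adjusted p = 0.273). The other 2 probe sets gave -0.48 and -0.50 in PGC-1α cells (limma adjusted p = 0.0298 and 0.0274). The call rested on the scale and on single arrays. It ended on the spike-in scale (-0.01, limma adjusted p = 0.968), in a fit of only these 2 groups (limma adjusted p = 0.121), without PGC-1α plus DFO replicate 2 (-0.36, limma adjusted p = 0.0629), without PGC-1α replicate 1 or 2 (-0.48 and -0.42, limma adjusted p = 0.0884 and 0.107), and without either array of GFP cells with DFO (limma adjusted p = 0.0619), and its adjusted p over the alternatives began at 3.15e-05.

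Lum (1423607_at) encodes lumican, a proteoglycan of collagen fibrils, and was dim, at the 22.5th percentile of all genes. Its intensity was 49.6 and 17.7 in PGC-1α cells with DFO, 75.6 and 23.9 in PGC-1α cells, 8.08 and 25.4 in GFP cells with DFO, and 92.7 and 17.8 in GFP cells. The arrays of a group differed more than the groups did, and all pairs of groups compared overlapped. The log2 difference with DFO was -0.52 ± 1.12 in PGC-1α cells and -1.51 ± 1.12 in GFP cells (limma adjusted p = 0.787 and 0.412), a precision at which changes of the size seen in Tnc or Fn1 were not detectable.

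**Figure D2:**
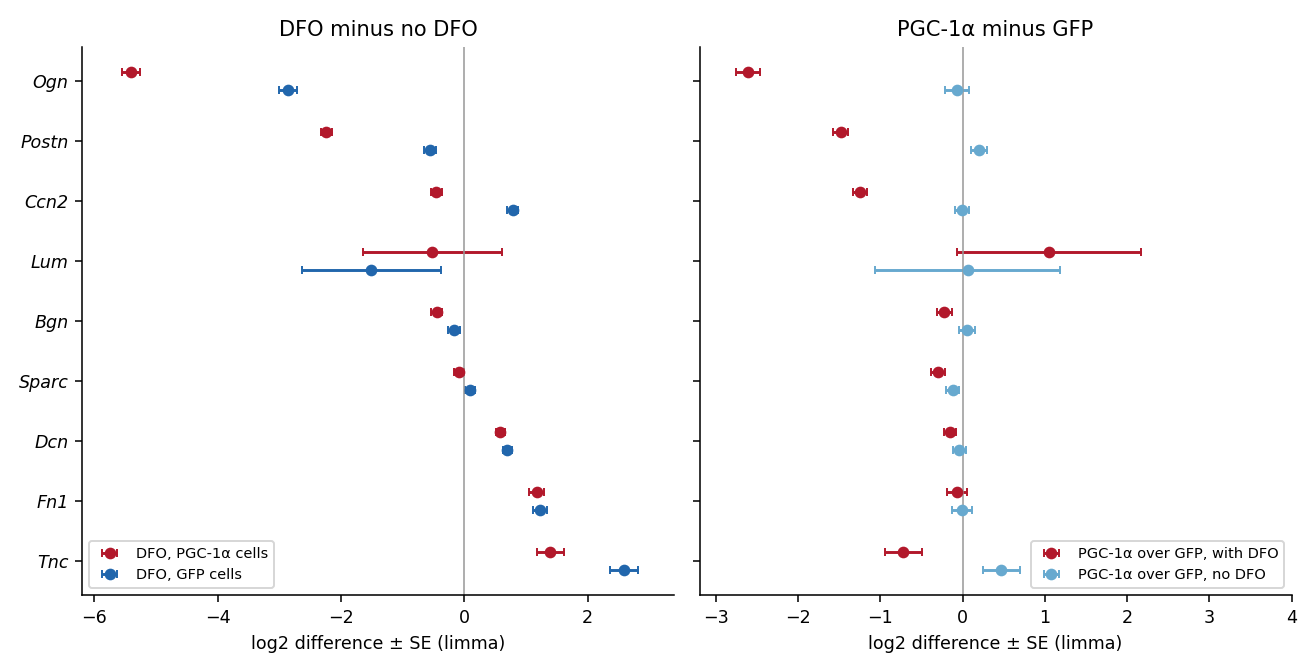
Log2 differences of the 9 measured genes, as points with the SE from limma as bars. The left panel gives DFO minus no DFO in PGC-1α cells (red) and GFP cells (blue), and the right panel PGC-1α minus GFP with DFO (red) and without it (light blue). In the left panel Ogn lies at -5.41 and -2.86 and Tnc at 1.40 and 2.59, and in the right panel no gene without DFO lies beyond 0.47.

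Among the 6 tested genes, DFO in GFP cells raised 3, Tnc, Fn1 and Dcn, and lowered 0. Over all genes 24.2% were called in that comparison, 11.8% as higher. DFO in PGC-1α cells raised the same 3 and lowered Bgn, where 25.6% of all genes were called, 11.4% as higher and 14.2% as lower. The construct called 0 of the 6 genes without DFO, against 9.73% of all genes (4.96% higher and 4.77% lower), and 0 with DFO, against 18.9% of all genes (6.93% higher and 12% lower). Without DFO no unadjusted limma p of the 6 was under 0.05, the lowest being 0.0862. By unadjusted limma p under 0.05, the construct with DFO gave Tnc (0.0212) and Sparc (0.0125). The interaction called 0 of the 6, against 0.555% of all genes, with Tnc at an unadjusted limma p of 0.0116. The median log2 difference of the 6 genes with DFO was 0.25 in PGC-1α cells and 0.39 in GFP cells, against 0.01 and -0.02 over all genes. All tested genes but Lum were above the median level of all genes. A fit of only the 9097 genes at or above that level called 55.7% for DFO in GFP cells and 56.6% in PGC-1α cells. For the construct it called 38.7% without DFO and 51.1% with DFO, and for the interaction 14.5%. With only 6 genes, their calls are read beside these shares as counts alone.

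Other measures moved with the groups as well. The beta-actin 5′/3′ ratio and the myotube markers given above were lowest in PGC-1α cells with DFO, the group in which Postn, Ogn and Ccn2 were lowest, and the part of either in those levels was not tested. DFO lowered all 12 myotube markers in PGC-1α cells (11 on the spike-in scale) and 11 of 12 in GFP cells, with Myog, the gene of myogenin, at 63.1 and 71.1 in PGC-1α cells with DFO against 5296 and 5245 without it, and at 174 and 141 in GFP cells with DFO against 5223 and 5330 without it. Of 10 markers of undifferentiated myoblasts or reserve cells, 3 rose and 4 fell with DFO under each construct, and their summed intensity was 3435 to 3812 in PGC-1α cells with DFO, 3858 to 4080 in PGC-1α cells, 2532 to 2862 in GFP cells with DFO and 3602 to 3781 in GFP cells. Among them Sdc4 rose, by 1.36 ± 0.16 in PGC-1α cells and by 1.71 ± 0.16 in GFP cells (limma adjusted p = 0.00372 and 0.00197). Myod1, the gene of MYOD1, fell, at -4.43 ± 0.15 in PGC-1α cells and -2.98 ± 0.15 in GFP cells (limma adjusted p = 0.00011 and 0.000376). Of 9 fibroblast markers, 2 rose and 2 fell with DFO in PGC-1α cells and 2 rose in GFP cells. Their summed intensity was 12167 to 12739 in PGC-1α cells with DFO, 12627 to 12756 in PGC-1α cells, 15591 to 15823 in GFP cells with DFO and 13251 to 13563 in GFP cells. Most of each sum was Col3a1, a fibrillar collagen gene, which averaged 7799, 8427, 10325 and 8655 in these groups. Of the 9 fibroblast markers, 6 were at or above the median level of all genes. Of 7 markers of dividing cells, 0 were called with DFO in PGC-1α cells and 1, Cdk1, was called as lower in GFP cells (-0.43 ± 0.10, limma adjusted p = 0.0285). That call ended without any 1 of 6 arrays and on the spike-in scale (limma adjusted p = 0.218). Only 2 of the 7 were at or above the median level of all genes, so a change in the dim ones could be missed. The sums of the 7 ran from 791 to 972 over the 8 arrays. Of all genes, 11.4% were called as higher and 14.2% as lower with DFO in PGC-1α cells, and 11.8% and 12.5% in GFP cells. The part of these cell types in the matrix genes' levels was not tested.

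Genes with array patterns like those of the 3 described genes were picked as the 3 highest Pearson correlations of log2 intensity over the 8 arrays, among 8871 genes at or above the median level, and are a description, since any 2 genes that follow the 4 groups correlate. For Postn they were Eef1a2 (0.9953), a translation factor of muscle and neurons, Nrep (0.9913) and Slco3a1 (0.9906). For Ogn they were Gatm (0.9983), the first enzyme of creatine synthesis, Bves (0.998), a membrane protein of muscle, and Vgll3 (0.9979), a TEAD cofactor. Gatm, for example, averaged 129.7 in PGC-1α cells with DFO, 899 in PGC-1α cells, 326 in GFP cells with DFO and 962 in GFP cells. For Ccn2 they were Col3a1 (0.9862), a fibrillar collagen, Rilpl2 (0.9859) and Cd44 (0.9854), the hyaluronan receptor. Col3a1 averaged 7799 in PGC-1α cells with DFO, 8427 in PGC-1α cells, 10325 in GFP cells with DFO and 8655 in GFP cells, a narrower range than that of Ccn2 in the same order at both ends.

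Relatives of the measured genes were counted from fixed lists. The background for these counts and for those of the lists below is the share over all genes. With DFO, 11.4% were called as higher and 14.2% as lower in PGC-1α cells, and 11.8% and 12.5% in GFP cells. In a fit of only genes at or above the median level, 56.6% were called in PGC-1α cells and 55.7% in GFP cells. Of the 5 other CCN genes, 2 fell with DFO in PGC-1α cells and 3 in GFP cells, and 0 rose. The list's median log2 difference was -0.43 in PGC-1α cells, turning to 0.01 on the spike-in scale, where 1 rose and 2 fell, and -0.47 in GFP cells. Ccn4, a WNT-induced member, read 435 and 381 in PGC-1α cells with DFO against 1277 and 1266 without it, and 558 and 488 in GFP cells with DFO against 1146 and 1108 without it. It fell, at -1.64 ± 0.11 in PGC-1α cells and -1.11 ± 0.11 in GFP cells (limma adjusted p = 0.00063 and 0.00226). Ccn3, a CCN protein that restrains growth in several cell types, fell as well, at -1.86 ± 0.12 in PGC-1α cells and -0.89 ± 0.12 in GFP cells (limma adjusted p = 0.000566 and 0.00592). Ccn1, a YAP target like Ccn2 and named here after its values were seen, read 1308 and 1378 in PGC-1α cells with DFO, 1314 and 1333 in PGC-1α cells, 1005 and 1015 in GFP cells with DFO, and 1368 and 1438 in GFP cells. It was lowest in GFP cells with DFO, the group in which Ccn2 was highest.

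Of the 11 other small leucine-rich proteoglycans, 2 rose with DFO in each cell group and 0 fell, and only 3 of the 11 were at or above the median level of all genes. In GFP cells these were Prelp (0.83 ± 0.13, limma adjusted p = 0.00884) and Nyx (0.54 ± 0.11, limma adjusted p = 0.0235), and both lost the call without either array of GFP cells with DFO (limma adjusted p = 0.0573 and 0.0634 for Prelp, 0.118 and 0.114 for Nyx). Nyx also lost it without either array of GFP cells (limma adjusted p = 0.0994 and 0.0815), and Prelp when probe sets ending in _x_at or _s_at were left out (limma adjusted p = 0.112). Of 16 enzymes that build the glycosaminoglycan chains of proteoglycans such as decorin and biglycan, 5 rose with DFO in each cell group and 0 fell, with medians of 0.35 in PGC-1α cells and 0.31 in GFP cells. Of all genes, 11.4% were called as higher in PGC-1α cells and 11.8% in GFP cells, and 13 of the 16 enzymes were at or above the median level. Csgalnact1, which starts chondroitin chains, read 575 and 482 in PGC-1α cells with DFO against 113 and 118 without it, and 698 and 675 in GFP cells with DFO against 91.2 and 101 without it. Its rise was 2.19 ± 0.12 in PGC-1α cells and 2.84 ± 0.12 in GFP cells (limma adjusted p = 0.00035 and 0.00027). Chst11, a chondroitin sulfotransferase, rose by 1.62 ± 0.18 in PGC-1α cells and by 1.09 ± 0.18 in GFP cells (limma adjusted p = 0.00312 and 0.0116). The Chst11 call in GFP cells ended without either array of GFP cells with DFO (limma adjusted p = 0.0756 and 0.0608) or without GFP replicate 1 (limma adjusted p = 0.0603).

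Other matrix glycoproteins were called in both directions with DFO, at shares that in GFP cells lay near those of all genes, 11.8% higher and 12.5% lower. Of 14 matricellular and adhesive genes, 2 rose and 4 fell in PGC-1α cells (2 and 3 on the spike-in scale), and 2 rose and 2 fell in GFP cells. Nid1, nidogen-1 of the basement membrane, read 2752 and 2219 in PGC-1α cells with DFO against 575 and 607 without it, and 2294 and 2425 in GFP cells with DFO against 581 and 594 without it. It rose by 2.07 ± 0.13 in PGC-1α cells and by 2.01 ± 0.13 in GFP cells (limma adjusted p = 0.000464 and 6e-04). Ecm1, an extracellular glycoprotein, rose by 2.24 ± 0.10 in PGC-1α cells and by 2.01 ± 0.10 in GFP cells (limma adjusted p = 2e-04 and 0.000329). Of 14 genes of microfibrils and elastic fibres other than Fbn1, 3 rose and 1 fell in PGC-1α cells, and 2 rose and 1 fell in GFP cells. The one that fell was Fbln5, fibulin-5 of elastic fibres, at -2.87 ± 0.11 in PGC-1α cells and -2.36 ± 0.11 in GFP cells (limma adjusted p = 0.000148 and 0.000311). Fbln2, fibulin-2, rose by 2.24 ± 0.13 in PGC-1α cells and by 1.92 ± 0.13 in GFP cells (limma adjusted p = 0.000432 and 0.000759). The Fbln2 call in GFP cells ended with the mean of its probe sets (limma adjusted p = 0.168). Of the 7 other SPARC-family genes, 1, Fstl1 for follistatin-like 1, rose under each construct, by 0.69 ± 0.11 in PGC-1α cells and by 1.09 ± 0.11 in GFP cells (limma adjusted p = 0.00901 and 0.00225). Its call in PGC-1α cells ended without PGC-1α replicate 1 (limma adjusted p = 0.0561) and in a fit of only these 2 groups (limma adjusted p = 0.0702).

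**Figure D3:**
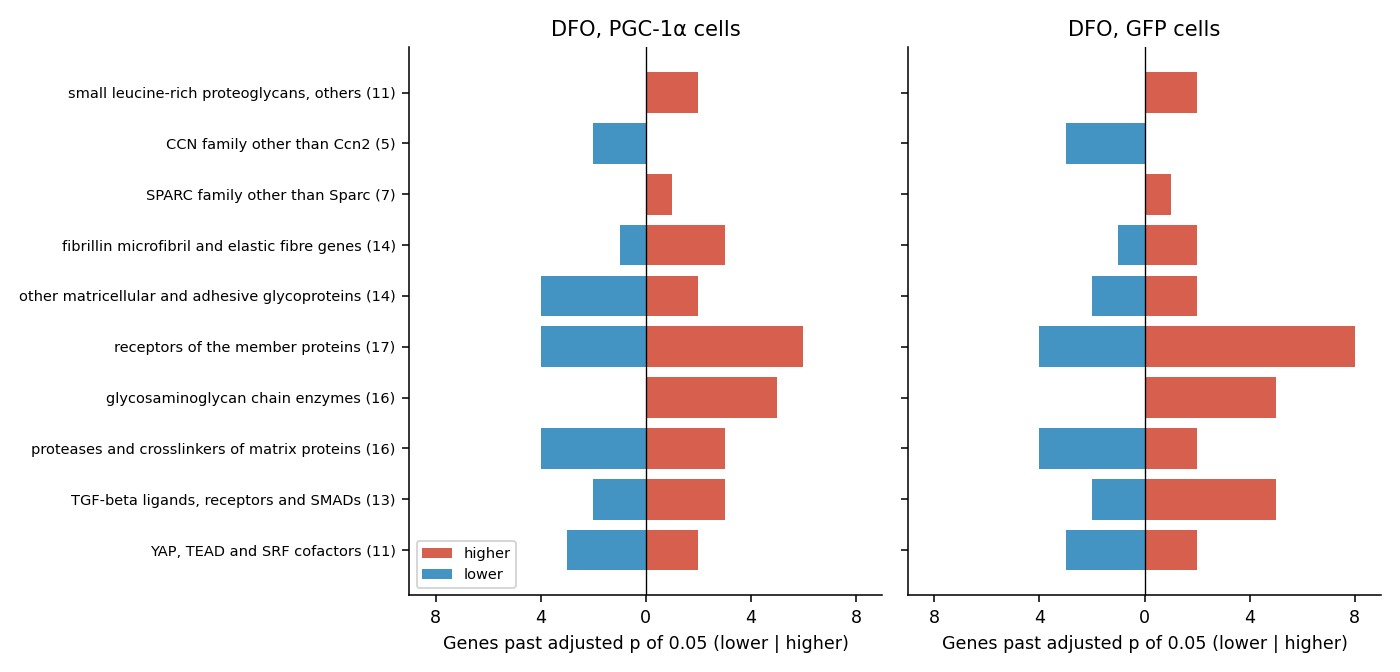
Genes of 10 related lists called at an adjusted limma p under 0.05 with DFO in PGC-1α cells (left) and in GFP cells (right), as bars to the right for higher and to the left for lower, with the number measured in parentheses. Of all genes, 11.4% were called as higher and 14.2% as lower in PGC-1α cells, and 11.8% and 12.5% in GFP cells. The glycosaminoglycan enzymes have 5 higher and 0 lower in both panels, and the CCN family has 0 higher with 2 lower in PGC-1α cells and 3 lower in GFP cells; on the spike-in scale the CCN family has 1 higher and 2 lower in PGC-1α cells.

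Of 17 receptors for the listed proteins, 6 rose and 4 fell with DFO in PGC-1α cells (7 and 1 on the spike-in scale), and 8 rose and 4 fell in GFP cells. Of all genes, 11.4% were called as higher and 14.2% as lower in PGC-1α cells, and 11.8% and 12.5% in GFP cells. Of the 17 receptors, 12 were at or above the median level. Itgb3, the beta-3 integrin subunit that pairs with the alpha-V subunit to bind fibronectin and periostin, read 627 and 400.04 in PGC-1α cells with DFO against 30.1 and 46 without it, and 386 and 452 in GFP cells with DFO against 40.4 and 40.8 without it. It rose by 3.75 ± 0.29 in PGC-1α cells and by 3.36 ± 0.29 in GFP cells (limma adjusted p = 0.000942 and 0.00149). Itgb8, the beta-8 subunit, which with alpha-V activates latent TGF-beta, fell, at -2.95 ± 0.20 in PGC-1α cells and -2.17 ± 0.20 in GFP cells (limma adjusted p = 0.000592 and 0.0017). Of 16 proteases, inhibitors and crosslinkers, 3 rose and 4 fell in PGC-1α cells (5 and 1 on the spike-in scale), and 2 rose and 4 fell in GFP cells. Tgm2, transglutaminase 2, which crosslinks fibronectin, fell, at -1.67 ± 0.10 in PGC-1α cells and -2.30 ± 0.10 in GFP cells (limma adjusted p = 0.000443 and 0.000284).

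TGF-beta ligands moved apart. Of 13 genes of TGF-beta ligands, receptors and SMADs, 3 rose and 2 fell with DFO in PGC-1α cells, and 5 rose and 2 fell in GFP cells. Of all genes, 11.4% were called as higher and 14.2% as lower in PGC-1α cells, and 11.8% and 12.5% in GFP cells. Of the 13 TGF-beta genes, 12 were at or above the median level. Tgfb3 read 71.8 and 64.5 in PGC-1α cells with DFO, 756 and 806 in PGC-1α cells, 565 and 575 in GFP cells with DFO, and 1457 and 1473 in GFP cells. It fell with DFO, at -3.52 ± 0.09 in PGC-1α cells and -1.36 ± 0.09 in GFP cells (limma adjusted p = 7.52e-05 and 0.000739). Tgfb2 fell too, at -2.48 ± 0.28 in PGC-1α cells and -2.27 ± 0.28 in GFP cells (limma adjusted p = 0.00306 and 0.0043). Tgfb1, named here after its values were seen, rose by 0.87 ± 0.14 in PGC-1α cells and by 0.93 ± 0.14 in GFP cells (limma adjusted p = 0.00871 and 0.00733). Smad7, the inhibitory SMAD that TGF-beta induces, rose by 1.55 ± 0.23 in PGC-1α cells and by 2.46 ± 0.23 in GFP cells (limma adjusted p = 0.00747 and 0.00187). Of 11 genes of YAP, TEAD and SRF cofactors, 2 rose and 3 fell under each construct. Srf, serum response factor, fell, at -1.01 ± 0.12 in PGC-1α cells and -1.08 ± 0.12 in GFP cells (limma adjusted p = 0.00389 and 0.00333). Both calls ended when probe sets ending in _x_at or _s_at were left out (limma adjusted p = 0.0906 and 0.0702), and the one in PGC-1α cells also on the spike-in scale (limma adjusted p = 0.0522). Tead4, a TEAD factor of differentiating muscle, fell, at -0.93 ± 0.12 in PGC-1α cells and -0.94 ± 0.12 in GFP cells (limma adjusted p = 0.00509 and 0.00527), with the call in PGC-1α cells lost on the spike-in scale (limma adjusted p = 0.103) and in a fit of only these 2 groups (limma adjusted p = 0.054).

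**Figure D4:**
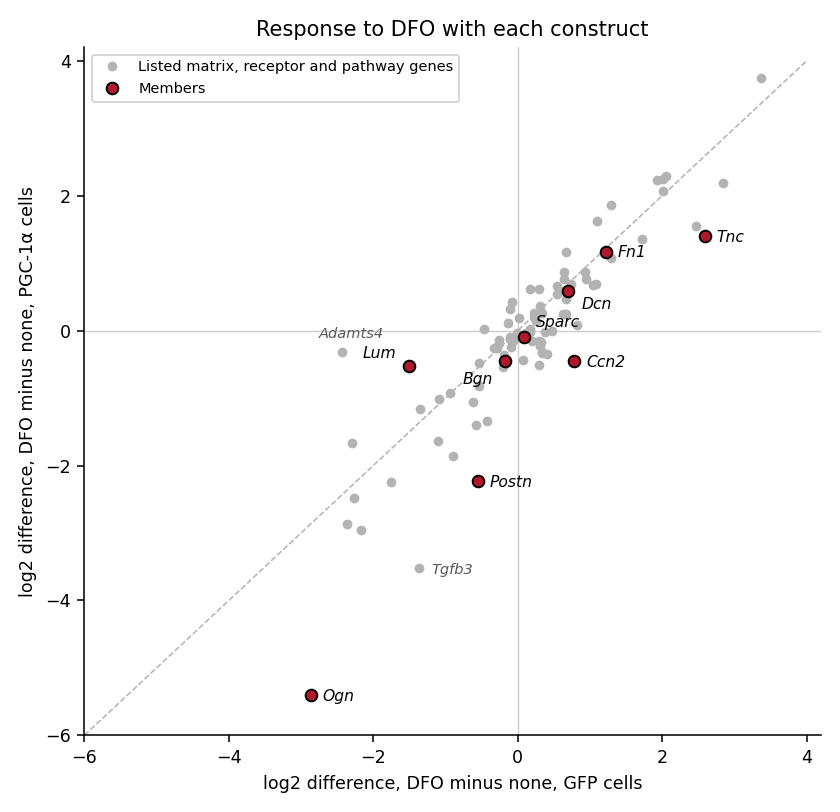
Log2 difference with DFO in PGC-1α cells (vertical axis) against that in GFP cells (horizontal axis) for the 9 measured genes (red) and for the listed genes at or above the median level (grey), with the line of equal values dashed. Ogn (-5.41 against -2.86), Postn (-2.24 against -0.55) and Ccn2 (-0.45 against 0.78) lie below the line, Fn1 (1.17 against 1.23) lies near it, and among the listed genes Tgfb3 lies below it and Adamts4 above it.

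Without DFO the construct changed 0 to 3 genes of each of these 10 lists by limma's test, where 9.73% of all genes were called. It raised 1 and lowered 2 of 17 receptors, raised 1 and lowered 2 of 16 proteases, inhibitors and crosslinkers, lowered 2 of 13 TGF-beta genes and 2 of 11 YAP, TEAD and SRF cofactors, and lowered 1 of 14 microfibril and elastic fibre genes. Pcolce, which speeds the processing of procollagen, read 5999 and 5911 in PGC-1α cells and 1836 and 2009 in GFP cells, a rise of 1.63 ± 0.12 (limma adjusted p = 0.00316). Sdc4, the syndecan-4 coreceptor for fibronectin and also a marker of reserve cells, read 774 and 839 in PGC-1α cells and 369 and 372 in GFP cells, a rise of 1.12 ± 0.16 (limma adjusted p = 0.0185), whose call ended without any 1 of these 4 arrays (limma adjusted p from 0.0772 to 0.0956). Tgfb3 fell as well, at -0.91 ± 0.09 (limma adjusted p = 0.00733), a call that ended on the spike-in scale (limma adjusted p = 0.121) and without PGC-1α replicate 1 (0.0613) or GFP replicate 1 (0.0501). Tgm2 fell too, at -1.01 ± 0.10 (limma adjusted p = 0.0069), a call that likewise ended on the spike-in scale (limma adjusted p = 0.128) and without PGC-1α replicate 1 (0.0567) or GFP replicate 1 (0.0502). Also called as lower were Itgb8 (-1.07 ± 0.20, limma adjusted p = 0.0329), Tead4 (-0.66 ± 0.12, limma adjusted p = 0.0343), Mrtfb, an SRF cofactor (-0.63 ± 0.11, limma adjusted p = 0.0317), and Tgfbr1, a TGF-beta receptor (-0.51 ± 0.11, limma adjusted p = 0.0462). These 4 calls ended on the spike-in scale (limma adjusted p from 0.0991 to 0.432) and without any 1 of the 4 arrays compared (limma adjusted p from 0.0585 to 0.186). A fit of only the 4 arrays without DFO called none of these 8 genes, and 0 of all genes (4531 at an unadjusted limma p under 0.05).

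With DFO the construct lowered 5 of 13 TGF-beta genes and 6 of 11 YAP, TEAD and SRF cofactors and raised 0 of either. Of all genes 6.93% were called as higher and 12% as lower. These shares include dim genes, whereas 12 of the 13 and all 11 were at or above the median level. A fit of only the 9097 genes at or above that level called 51.1% of them, 3135 as lower. The median log2 differences of these lists were -0.50 and -0.55, turning to 0.12 and 0.07 on the spike-in scale, where the counts were 2 higher with 1 lower and 0 either way. Among them Tgfb3 fell, at -3.07 ± 0.09 (limma adjusted p = 0.000302). The construct with DFO raised 2 and lowered 4 of 17 receptors, raised 0 and lowered 3 of 16 glycosaminoglycan enzymes, and raised 2 and lowered 3 of 16 proteases, inhibitors and crosslinkers. It raised 1 and lowered 1 of the other CCN genes, and raised 1 and lowered 0 of the other small leucine-rich proteoglycans and of the other SPARC-family genes. It lowered 2 of 14 matricellular and adhesive genes and 1 of 14 microfibril and elastic fibre genes, and raised 0 of either.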

How the data were processed

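RNA from 8 cultures was measured on Affymetrix Mouse 430 2.0 arrays, 2 per group. The deposited value table holds 1 linear intensity per probe set and array. The authors' summarisation, background correction and scaling were not given in the sources used here. Medians of 59.5 to 62.8 per array show that a common level had been set, and each array held 968 to 1082 values of exactly 1.

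Intensities were taken to log2 without a pseudocount or a filter. Of 45101 probe sets, 34945 had 1 symbol in the platform annotation, and each of 18193 genes was represented by its brightest. With limma 3.58.1 (R 4.3.3), lmFit and eBayes estimated a mean for each group from all 8 arrays, with 4 residual degrees of freedom, for the construct and for DFO at each level of the other, and for their interaction. The interaction is the DFO difference in PGC-1α cells minus that in GFP cells. p-values are two-sided and Benjamini-Hochberg adjusted over all genes (of other probe sets, over all probe sets), called at 0.05, and no exact permutation test of 2 arrays against 2 can go below 0.333. The procedure was tested on simulated data.

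Members, lists and alternatives were chosen with earlier results of these data known. Named from each list were up to 2 called genes above the median level with the largest difference, for DFO in GFP cells and for the construct without DFO. Ccn1, Tgfb1 and Id1 were named outside this rule. Of the marker genes that it picked, Ckm, Myh3, Myh8 and Col1a1 are not described singly. Alternatives were quantile normalization, spike-in scaling, averaging probe sets per gene, probe-set and dim-gene filters, a floor at the 25th percentile, limma's trend and robust options, fitting only the compared groups, a replicate block, and leaving out each array. Figures used matplotlib 3.10.9 in Python 3.11.15.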

Additional observations from a re-analysis of the deposited data

Results flagged for a closer look

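The construct went with opposite differences in Postn with and without DFO: both arrays of PGC-1α cells lay below both of GFP cells with DFO and above them without it, and the log2 difference between the 2 comparisons was -1.68. This difference was not tested, since Postn was chosen for standing out. DFO went with opposite differences in Ccn2, lower on both arrays in PGC-1α cells and higher on both in GFP cells, with a log2 difference of -1.24 between the 2 comparisons, which was likewise not tested. The lower Ccn2 value in PGC-1α cells depended on the scale, and on the spike-in scale it was nearly absent, as given above.

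Adamts4, a protease that cleaves proteoglycans, had an interaction of construct and DFO of 2.12 ± 0.18 (limma adjusted p = 0.0319). It read 788 and 694 in PGC-1α cells with DFO, 910.43 and 930 in PGC-1α cells, 153 and 169 in GFP cells with DFO, and 795 and 947 in GFP cells, so the low arrays were those of GFP cells with DFO. Tgfb3 had an interaction of -2.16 ± 0.13 (limma adjusted p = 0.0235), with its lowest arrays in PGC-1α cells with DFO. Both calls rested on the processing: on the spike-in scale the adjusted p by limma was 0.106 for Adamts4 and 0.137 for Tgfb3, and with probe sets averaged per gene it was 0.0896 and 0.0518. Without 1 array at a time the Adamts4 call ended in all 8 cases and the Tgfb3 call in 7 of 8, with adjusted p by limma up to 0.188 and 0.178, both without GFP plus DFO replicate 1.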

How the results depend on the processing

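Of the 6 tested genes, DFO in GFP cells called 3, against 2 on the spike-in scale, 4 with trend and robust options and 3 under the other alternatives run. DFO in PGC-1α cells called 4, against 1 in a fit of only these 2 groups and 2 to 4 with 1 array left out, the 2 without PGC-1α replicate 2. The construct with DFO called 0, against 2 with probe sets averaged per gene, 2 among genes at or above the median level, 1 with the floor, 4 with trend and robust options, and 0 to 1 with 1 array left out, the 1 (Tnc) without PGC-1α plus DFO replicate 1. The construct without DFO called 0, against 1 with trend and robust options, and the interaction called 0, against 1 among genes at or above the median level and 1 with trend and robust options.

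Sign changes, whose cause was not tested, concerned differences that were not called or not tested, apart from Tnc with DFO in PGC-1α cells (1.40), which was -0.21 with the mean of its probe sets and -1.82 on its dim one. On the spike-in scale the construct without DFO gave 0.17 for Ccn2, 0.054 for Sparc, 0.17 for Fn1, 0.11 for Ogn and 0.14 for Dcn, the construct with DFO 0.32 for Sparc, 0.55 for Fn1, 0.46 for Dcn and 0.39 for Bgn, DFO in PGC-1α cells 0.35 for Sparc, and the interaction 0.26 for Sparc, 0.39 for Fn1, 0.33 for Dcn and 0.16 for Bgn. Quantile normalization gave 0.051 for Ccn2 and -0.025 for Bgn for the construct without DFO, 0.014 for Fn1 with it, and interactions of 0.086 for Fn1 and 0.0083 for Dcn. The floor gave -0.044 for Lum for the construct without DFO. The mean of probe sets gave -0.046 for Bgn for the construct without DFO, 0.067 for Dcn with it, -0.034 for Sparc with DFO in GFP cells and 0.14 for the interaction of Dcn. Other probe sets gave -0.18 for Tnc and -0.10 and -0.090 for Bgn for the construct without DFO, 0.034 for Sparc and 0.29 for Dcn with it, -0.29 for Sparc with DFO in GFP cells, and interactions of 0.25 for Sparc and 0.40 for Dcn.

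With 1 array left out, the construct without DFO ranged from -0.083 to 0.062 for Ccn2, from -0.12 to 0.10 for Fn1, from -0.21 to 0.078 for Ogn and from -1.13 to 1.25 for Lum. With DFO it ranged from -0.15 to 0.019 for Fn1. DFO in PGC-1α cells ranged from -1.35 to 0.31 for Lum, and the interaction from -0.17 to 0.058 for Fn1 and from -0.20 to 2.18 for Lum. Dim signal limits Lum, the second Tnc probe set and most other small leucine-rich proteoglycans. It also limits other lists. At or above the median level were 1 of 7 other SPARC-family genes and 2 of 7 markers of dividing cells. The same held for 6 of 14 microfibril and elastic fibre genes and 7 of 14 matricellular and adhesive genes.

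The number of genes called over the whole array varied more. It was 1770 for the construct without DFO (0 to 3746 over the alternatives), 3446 for the construct with DFO (861 to 4992), 4409 for DFO in GFP cells (2069 to 5623), 4662 for DFO in PGC-1α cells (1942 to 5912) and 101 for the interaction (0 to 1467). The 0 for the interaction came without GFP plus DFO replicate 1, with 2089 genes at an unadjusted limma p under 0.05.

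Replicate numbers showed no strong pairing of the samples: deviations of same-numbered arrays correlated between -0.11 and 0.222 over the 6 pairs of groups. The labels give no shared batch, and whether same-numbered cultures were handled together is not known. With the replicate block the tested genes called were 0 for the construct with DFO, 0 for it without DFO, 4 for DFO in PGC-1α cells, 3 for DFO in GFP cells and 0 for the interaction. Over all genes the replicate block called 2685 for the construct with DFO, 1060 for it without DFO, 4037 for DFO in PGC-1α cells, 3840 for DFO in GFP cells and 3 for the interaction, and the interactions of Adamts4 and Tgfb3 were no longer called (limma adjusted p = 0.0994 each).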

Other observations

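Among the genes used to describe the cells, Id3, an inhibitor of myogenic factors, was lowest in GFP cells with DFO, as Ccn1 was. Id3 read 178 and 173 in PGC-1α cells with DFO, 257 and 271 in PGC-1α cells, 69.6 and 55.3 in GFP cells with DFO, and 272 and 204 in GFP cells. It fell with DFO in GFP cells (-1.92 ± 0.18, limma adjusted p = 0.0019), and in PGC-1α cells its difference of -0.59 ± 0.18 did not pass (limma adjusted p = 0.0704). The construct raised it in the presence of DFO by 1.499 ± 0.18 (limma adjusted p = 0.00608). Id1, another inhibitor of myogenic factors on the same marker list and named here outside the rule, went the other way with DFO. It rose by 1.05 ± 0.12 in PGC-1α cells and by 0.50 ± 0.12 in GFP cells (limma adjusted p = 0.0036 and 0.04).

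Pdpn, the membrane glycoprotein podoplanin, read 2428 and 2486 in PGC-1α cells with DFO, 907 and 899 in PGC-1α cells, 2199 and 1798 in GFP cells with DFO, and 1170 and 1002 in GFP cells. It rose with DFO by 1.44 ± 0.13 in PGC-1α cells and by 0.88 ± 0.13 in GFP cells (limma adjusted p = 0.00164 and 0.00862), and the call in GFP cells ended in a fit of only these 2 groups (limma adjusted p = 0.0531).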
